A study of Ovis aries with 7 samples.

Results

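CKS2 and CKS1B are paralogous genes for small subunits of cyclin-dependent kinases, and they are described here in sheep (Ovis aries) embryos that were made by in vitro fertilization (IVF) and taken at the 8-cell stage. They are 2 of 31304 rows in the expression table. CKS2 was chosen by its level in these same libraries, where it was the most abundant gene symbol, and CKS1B was added as its paralog, so their levels are descriptions and carry no test. PolyA RNA was amplified and sequenced by Smart-seq2, a method for very small inputs, in 3 IVF libraries. The series also names 4 libraries from somatic cell nuclear transfer (SCNT) embryos, which were not analysed here, since the names of the table's remaining columns match none of the labels. No contrast between SCNT and IVF embryos is therefore given. The labels name no breed, treatment or allele for the IVF embryos. They do not say how many embryos went into a library or whether the libraries came from separate trials, so the spread among libraries may be partly technical.

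CKS proteins bind cyclin-dependent kinases (CDKs) and dock the kinase onto partners that carry phosphate groups. Through this docking they help CDK1 phosphorylate its mitotic targets and help bring targets to the anaphase-promoting complex (APC/C), the ubiquitin ligase that ends mitosis. In human biochemistry, the protein made from CKS1B is the required helper of the F-box protein SKP2 when the SCF ligase marks the CDK inhibitor p27 for destruction, a task its paralog does not perform. In mice, loss of Cks2 blocks germ cells in the first meiotic division. Early cleavage embryos divide largely on RNA and protein stored in the egg.

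CKS2 was the most abundant of all rows in each of the 3 libraries, unnamed loci included. It stood at 43509.9, 38337 and 48336 TPM in replicates 1, 2 and 3, a mean of 43394 ± 5000.5 TPM (SD, n = 3). TPM (transcripts scaled to a fixed total) divides reads by the length of each gene, which puts levels of different genes on a scale per length. The lengths that the authors used are not stated, so each ratio between genes below holds only as far as those lengths do. The highest library exceeded the lowest by 1.26-fold, with replicate 2 lowest. CKS2 alone took 4.35, 3.83 and 4.83% of all TPM in the same order. The next symbol in each library was TMSB4X, the gene for an actin-binding peptide, at 38663, 24242 and 26668 TPM. CKS2 lay above it by 0.56 ± 0.35 on the log2(TPM + 1) scale, higher within each of 3 libraries, although the ranges of both genes overlap across libraries and the difference was only 0.17 in replicate 1. By mean TPM, FAU and ERH followed as the next symbols at 12163 ± 1898 and 8593 ± 1856 TPM. ERH ranked 11 among symbols in replicate 2, and unnamed loci also lay between TMSB4X and ERH by mean.

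CKS1B was abundant too, but more than an order of magnitude below CKS2. It stood at 3244, 2199 and 2640.3 TPM in replicates 1, 2 and 3, a mean of 2694 ± 525 TPM (SD, n = 3), with replicate 2 again lowest and replicate 1 highest. Among all rows, unnamed loci included, it ranked 54 by its mean, and 42, 69 and 56 within replicates 1, 2 and 3. Among 16539 rows with a gene symbol it ranked 36 by its mean, and 28, 47 and 39 within replicates 1, 2 and 3. Close neighbours in that order included SAT1 (2815 ± 848) above it. Below it came the mitochondrial gene ND2 (2587 ± 1218), ARL14EP (2577 ± 273) and RPS12 (2398 ± 551). CKS1B differed from each of these 4 neighbours in mean TPM by less than its own SD.

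CKS2 outweighed CKS1B by a similar factor in all 3 libraries. CKS2 exceeded CKS1B by 3.75, 4.12 and 4.19 on the log2(TPM + 1) scale in replicates 1, 2 and 3, a mean of 4.02 ± 0.24. The ratio of CKS2 to CKS1B in TPM was 13.4, 17.4 and 18.3 in the same order, lowest in replicate 1, where CKS1B was highest. CKS2 thus made up 93.1, 94.6 and 94.8% of the RNA of both genes together, and CKS1B the remaining 5.85 ± 0.95%. Copies of either gene among the rows without a symbol could not be recognised, so the share covers the rows named CKS2 and CKS1B alone. Leaving out each library in turn kept the mean log2 difference between 3.93 and 4.16.

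**Figure D1:**
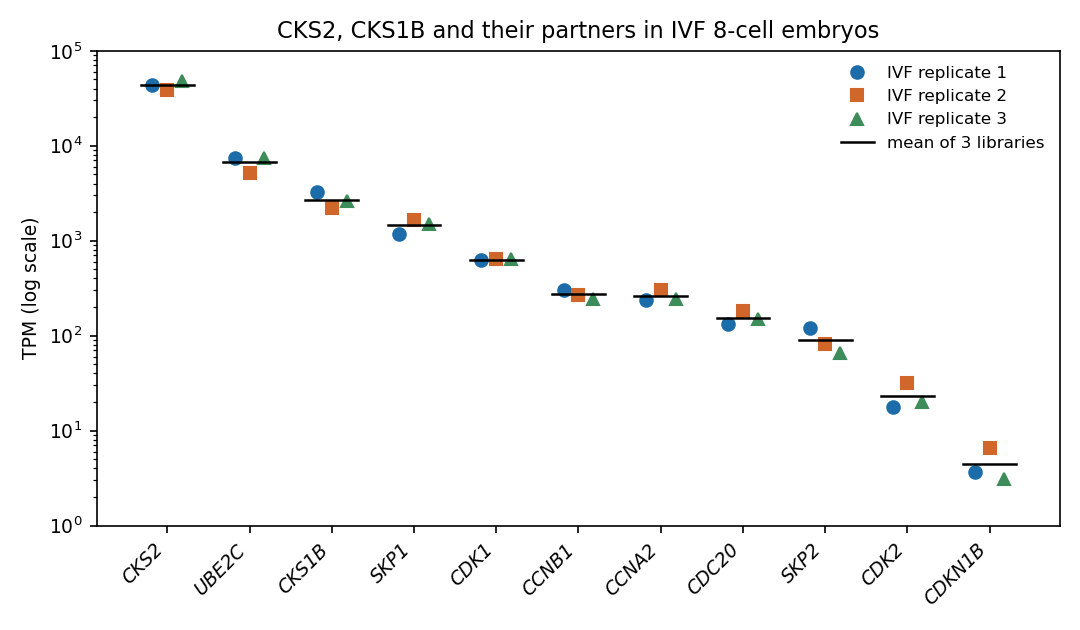
TPM on a log scale for CKS2, CKS1B and 9 genes of the same pathway, 1 point per IVF library and a bar at the mean of the 3 libraries. CKS2 lies between 38337 and 48336 TPM, UBE2C is the only other gene drawn above CKS1B, and CDKN1B is lowest at 4.42 TPM on average.

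The RNAs of the listed CDKs and cyclins lay below those of both paralogs. CDK1, the mitotic kinase, was at 626, 635.5 and 635.6 TPM in replicates 1, 2 and 3, a mean of 632 ± 5.72 TPM, with a coefficient of variation of 0.90% in TPM. That evenness depended on the scaling, since with median-of-ratios scaling CDK1 was at 656, 535 and 699 and its coefficient was 13.5%. CKS2 exceeded CDK1 by 6.09 ± 0.17 on the log2(TPM + 1) scale, a TPM ratio of 60.3 to 76.1, and CKS1B exceeded it by 2.07 ± 0.29, a ratio of 3.46 to 5.19. CDK2, the kinase of S phase entry, was at 17.8, 31.9 and 19.9 TPM. The sum of CKS2 and CKS1B was 72.7, 60.7 and 77.8 times the sum of CDK1 and CDK2 in replicates 1, 2 and 3.

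Among the cyclins, those of mitosis and of the entry into S phase led. CCNB1, the main mitotic cyclin, was at 272 ± 28.0 TPM, CCNA2 at 262 ± 36.6 and CCNB2 at 184 ± 58.4, while the S phase cyclin CCNE1 followed at 162 ± 37.0. CCND3, a cyclin of the early G1 phase, was lowest at 0.11 ± 0.06 TPM. Of 15 genes in this list, 11 had at least 1 TPM in all 3 libraries, against 49.0% of all symbol rows, and the median gene had a mean of 25.7 TPM, against 1.58 over all symbols. The 4 below that level in at least 1 library were CDK3, CDK6, CCND2 and CCND3, named after their values were seen.

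SKP2, the F-box protein that works with the CKS1B product, was at 120.4, 82.1 and 65.3 TPM in replicates 1, 2 and 3. CKS1B exceeded it by 4.93 ± 0.34 on the log2(TPM + 1) scale, or 26.9, 26.8 and 40.4 times in TPM, so SKP2 RNA was the scarcer of this pair in each of 3 libraries. The adaptor SKP1, which many SCF ligases share, was the most abundant gene of the ligase at 1175, 1650.0 and 1515 TPM, and came closest to CKS1B, which was 2.76, 1.33 and 1.74 times as high. RBX1, the ring subunit, was at 308 ± 39.6 TPM, the E2 enzyme gene UBE2R2 at 14.0 ± 8.03, and CDC34, also an E2 enzyme gene, was lowest at 9.75 ± 2.59. Each of the 6 genes of the ligase passed 1 TPM in every library, against 49.0% of all symbol rows.

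RNA for the inhibitor that this ligase targets was scarce beside that of CKS1B, and its protein was not measured. Its mean of 4.42 TPM lay above the 1.58 TPM of the median symbol. CDKN1B, which encodes p27, was at 3.67, 6.50 and 3.08 TPM in replicates 1, 2 and 3, so that CKS1B stood 883, 338.5 and 857 times as high. Of 7 CDK inhibitor genes listed, 5 were in the table, and each passed 1 TPM in every library, against 49.0% of all symbol rows. CDKN2C led at 23.8 ± 3.13 TPM, with CDKN2D next at 12.1 ± 3.17, and CDKN1A, a target of p53, was lowest at 2.26 ± 1.05. CDKN1C was the least even, at 20.2, 4.91 and 5.72 TPM, with replicate 1 well above the others.

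Genes that switch CDK1 on or off at the start of mitosis were mostly at modest levels. The mitotic kinase gene AURKA was the highest of 15 at 578 ± 132 TPM, followed by ARPP19 (86.0 ± 21.1), whose product restrains a phosphatase that opposes CDK1, CDK7 (51.3 ± 1.91), the kinase that activates CDKs, and BORA (30.6 ± 5.58), a cofactor of AURKA. ENSA, a relative of ARPP19, was lowest at 0.66 ± 0.21 TPM. The median gene had a mean of 11.5 TPM. All but ENSA and MNAT1, 13 of 15, had at least 1 TPM throughout, against 49.0% of all symbol rows. MNAT1 was named after its value was seen.

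The APC/C list held both the single partner gene above CKS1B and genes listed at 0. UBE2C, the ubiquitin-conjugating enzyme that serves the APC/C, was at 7467, 5148 and 7469 TPM in replicates 1, 2 and 3. Of 62 partner genes it alone lay above CKS1B in each library, and CKS2 exceeded it by 2.71 ± 0.18 on the log2(TPM + 1) scale. PTTG1, which encodes the securin that the complex destroys, was at 734.5 ± 352 TPM, the inhibitor FBXO5 at 199.5 ± 82.1 and the activator CDC20 at 154 ± 24.1. Of the 14 subunits of the complex itself, CDC26 (103 ± 50.1) and CDC27 (72.4 ± 30.9), whose product binds CKS proteins when phosphorylated, were above 50 TPM, and 10 lay between 1.78 and 13.5 TPM. ANAPC11 and ANAPC15 were listed at 0 in all 3 libraries. Whether the RNA of either gene was truly absent was not tested. In all, 19 of 21 genes in the list had at least 1 TPM throughout, against 49.0% of all symbol rows. The median gene of the list had a mean of 9.86 TPM.

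Over the 5 lists, 54 of 62 genes passed 1 TPM in every library, against 49.0% of all symbol rows. The TPM of all 62 summed to 13113, 11828 and 12741 in replicates 1, 2 and 3. CKS2 alone was 3.32, 3.24 and 3.79 times that sum.

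**Figure D2:**
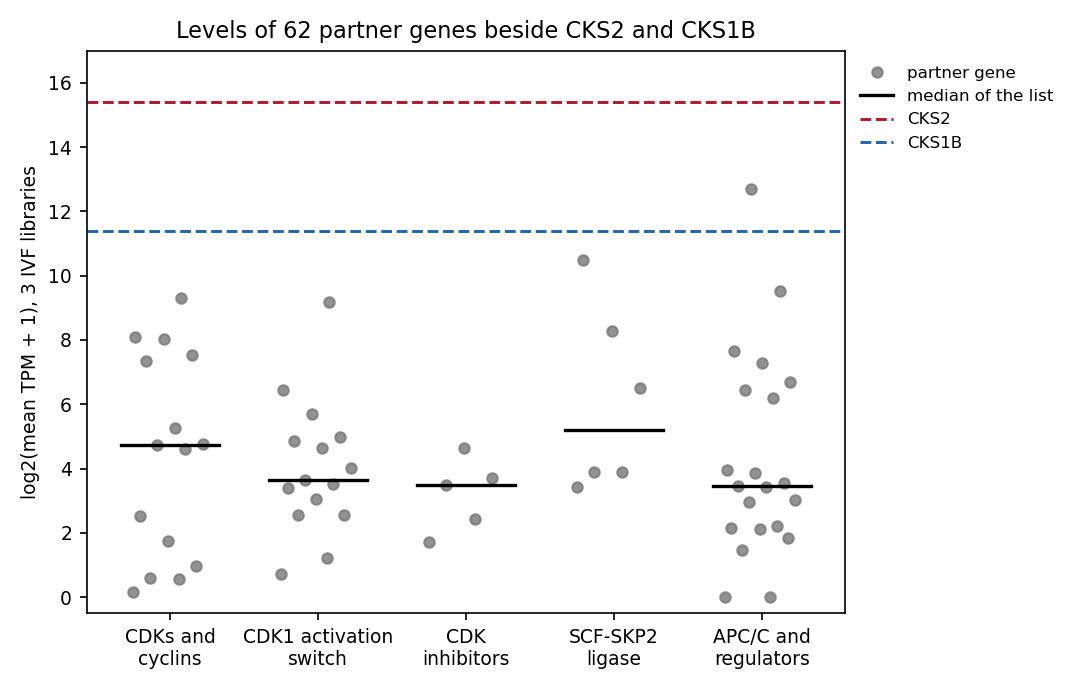
Mean level over the 3 IVF libraries, as log2(mean TPM + 1), of each of 62 partner genes (points) in 5 lists with the median of each list (bars), beside dashed lines for CKS2 and CKS1B. All 62 points lie below CKS2, and UBE2C in the APC/C list is the single point above CKS1B.

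Across the libraries the paralogs shared their lowest value, in replicate 2, but not their highest. On the log2(TPM + 1) scale CKS2 was 0.02 above, 0.26 below and 0.24 above the mean of the other libraries in replicates 1, 2 and 3, whereas CKS1B was 0.43 above, 0.41 below and 0.02 below. Of 5778 symbols with a mean of at least 5 TPM, 11.3, 14.3 and 2.35% differed from the mean of the other libraries by 2-fold or more in replicates 1, 2 and 3, so replicates 1 and 2 both stood farther out than replicate 3. The median symbol differed from the other libraries by -0.02, 0.16 and -0.13 in the same order. Of 43 partner genes of that level, 23, 28 and 10 were higher, with median differences of 0.01, 0.21 and -0.22. CKS2 thus lay opposite to the median partner gene in replicates 2 and 3. Mitochondrially encoded rows took 2.55, 5.53 and 1.94% of TPM in replicates 1, 2 and 3, and so were highest in replicate 2. The 8-cell markers examined summed to 972, 1846 and 1149.6 TPM in replicates 1, 2 and 3. ZSCAN4 among them was at 54.7, 216 and 69.3 TPM and ARGFX at 376, 1022 and 444. KLF17 was more even, at 98.9, 117 and 105 TPM, and EIF1AX was highest in replicate 3, at 443, 491 and 532. The oocyte markers summed to 1215, 1427 and 946 TPM. ZP2 (124, 353 and 124), GDF9 (67.5, 190.5 and 60.8), ZP4 and BMP15 were highest in replicate 2. MOS (493, 162 and 287) and ZP3 (180, 112 and 207) were lowest there. The part of these shifts in the low CKS2 and CKS1B values of replicate 2 was not tested. Without replicate 2, CKS2 averaged 45923 TPM and CKS1B 2942 TPM.

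**Figure D3:**
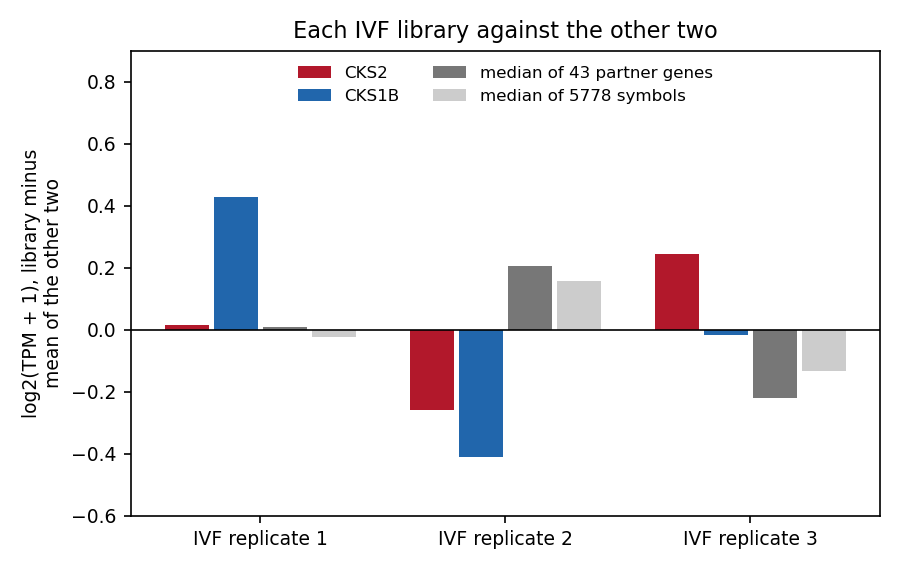
Each IVF library minus the mean of the other libraries, on the log2(TPM + 1) scale, for CKS2, CKS1B, the median of 43 partner genes and the median of 5778 symbols with a mean of at least 5 TPM. In replicate 2 both paralogs lie below 0 (-0.26 and -0.41) while both medians lie above it (0.21 and 0.16).

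In TPM the spread of CKS2 among libraries was smaller than that of most abundant symbols, and under another scaling it was nearer to their median. The coefficient of variation was 11.5% for CKS2 and 19.5% for CKS1B, against a median of 20.3% over 131 symbols with a mean of at least 1000 TPM. Of these symbols, 21 varied less than CKS2 and 58 less than CKS1B. With median-of-ratios scaling, chosen for this measure after seeing the data, the coefficient was 24.2% for CKS2 and 29.2% for CKS1B against a median of 26.1%, and 52 and 74 symbols varied less.

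The symbols most like CKS2 over the 3 libraries, by the root mean square difference of log2(TPM + 1) centred on each gene's mean, were PDHB, NDUFB9, USE1, ZNHIT3 and BCCIP, at 0.0033 to 0.018. PDHB, a subunit of pyruvate dehydrogenase, was at 116, 103 and 129 TPM in replicates 1, 2 and 3. For CKS1B they were ACAD8, DDX47, PRMT1, CNBP and TMEM126A, at 0.011 to 0.021, and PRMT1, an arginine methyltransferase, was at 155, 105 and 129 TPM. CKS1B itself came 492 in the order of likeness to CKS2 among 1673 symbols with a mean of at least 50 TPM, at a distance of 0.20. With 3 libraries this order describes these samples only.

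Markers of the labelled stage and of oocytes were present, and those of cumulus, granulosa and fibroblast cells were low. The 8-cell and oocyte genes were present at 1 TPM or more in all libraries in 4 of 4 and 6 of 6 cases. Over all symbol rows the share was 49.0%. Of 6 cumulus and granulosa markers in the table, 1 (HAS2) reached that level throughout, with the list's TPM summing to between 8.88 and 16.5, and PTX3 was listed at 0. Of 9 fibroblast markers, 2 (VIM and PDGFRA) did, with sums between 11.3 and 18.9, and POSTN was listed at 0. These sums are small beside the 38337 TPM or more of CKS2. CKS2 was not measured in those cell types, so their part in its level was not tested.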

How the data were processed

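The authors deposited 1 table of TPM, with each column used summing to 1000000. The submitters' processing notes name fastp 0.23.4 and HISAT2 2.2.1. The sheep build, the annotation, the gene lengths, the counting tool and the handling of reads that match several copies are not stated in any source used. Sequencing depth cannot be had from TPM, which leaves it unknown, and neither intervals nor floors are printed. A rise in abundant genes lowers all others in TPM, and the gene length used scales a gene alike in every library. Columns were assigned to samples by name. The table's 4 other columns of per-sample values match no label and enter no result. Values in those columns for both genes were seen while the table was inspected. RefSeq's gene table for ARS-UI_Ramb_v3.0 held 28875 of the 31304 row names and gave the symbols of mitochondrial genes.

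From the TPM values, means, SDs, ranks and differences of log2(TPM + 1) within libraries were computed, with no test, since only 1 group was usable. The genes, the 5 partner lists and the markers were chosen with earlier results of these data known. The naming rule took, per list, the 4 highest, the lowest and those at 0, with CDK1, CCNB1, SKP2, CDKN1B and CDC20 always, 3 neighbours on either side (some are not reported here), and the 5 most alike symbols. CDK2, CCNE1, CDC26, CDC27 and the markers named were added outside it. Log2 differences were checked on a copy of the table in which some rows were scaled by known factors. Recovery of those factors was largely fixed in advance. Python 3.11.15, numpy 2.4.6, pandas 2.3.3 and matplotlib 3.10.9 were used.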

Additional observations from a re-analysis of the deposited data

How the results depend on the processing

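No paired analysis was possible because only IVF columns could be tied to samples. Of 27 values under other scalings, pseudocounts (0.1 and 5) and detection thresholds (0.1 and 5 TPM), 24 stayed within 1 SD of the libraries (within 1.5 times for counts), and none changed sign. The other 3 came from removing mitochondrially encoded and ribosomal protein genes, which raises all remaining values by construction. CKS2 then stood at 52365 TPM, or 5.24% of the total, and CKS1B at 3246 TPM. The count of partner genes was 58 at the 0.1 TPM threshold and 42 at 5 TPM. The shares over all symbols at those thresholds were not computed. Scaling a whole library by a common factor leaves log2 differences within it nearly unchanged. The pseudocounts are also small beside the levels compared. The stability and sign of those differences were therefore largely fixed in advance. With median-of-ratios scaling CKS2 was at 45655.5, 32266 and 53153 in replicates 1, 2 and 3, so its highest value was 1.65 times its lowest, against 1.26 in TPM. The coefficients of variation of CKS2 and CDK1, 11.5 and 0.90% in TPM, became 24.2 and 13.5% under it, an alternative added after seeing the data, and 0 and 3.42% under quantile normalization. Quantile normalization gives CKS2, first in each library, equal values and an unchanged mean by construction. Leaving out each library in turn gave 40923 to 45923 TPM for CKS2, 4.09 to 4.59% of TPM, 2420 to 2942 TPM for CKS1B, log2 differences of 3.93 to 4.16 for CKS2 over CKS1B, 6.02 to 6.18 for CKS2 over CDK1 and 4.73 to 5.03 for CKS1B over SKP2, and 54 to 55 partner genes at 1 TPM or more.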
